A study of Homo sapiens with 6 samples.

Results

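The S100 proteins are small calcium-binding proteins that carry a pair of EF-hand loops, usually work as dimers, and act inside the cell on cytoskeletal and membrane partners or outside it as ligands of receptors such as RAGE and TLR4. Most of their genes lie together on chromosome 1, next to the genes of the cornified envelope, and several of them are abundant in pancreatic ductal carcinoma. S100A8 and S100A9 form calprotectin, which binds zinc, manganese and iron and is best known from neutrophils and from stressed epithelium. A set of 10 such genes, S100A4, S100A6, S100A7, S100A8, S100A9, S100A10, S100A11, S100A14, S100A16 and S100P, were examined. They were chosen by name, as the non-control spots carrying these gene names, which gave 20 spots and 11 probes of the 50599 probes on the array, and 10 of its 34423 gene names. All 11 probes passed the detection filter and were well above background in all 6 tumors, so no member was lost.

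RNA came from xenografts of the BxPC-3 line, established from a human adenocarcinoma of the pancreas and grown under the skin of adult female BALB/c nude mice, which lack T cells but keep other leukocytes, and implanted with Matrigel. When tumors had reached 150 mm3, 3 of the mice studied here received deferasirox (DFX), an oral iron chelator, at 200 mg/kg by gavage 3 times per week for 21 days, and 3 received the vehicle alone. Each tumor was hybridized to 1 one-color array with human 60-mer probes, and values are quantile-normalized log2 intensities unless stated otherwise. In a whole tumor, fewer cells of a type and less RNA per cell cannot be told apart. Nothing was stated about litters, so the p-values measure the spread between these 6 tumors.

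All 10 ductal carcinoma markers, KRT19 and EPCAM among them, were well above background on every array. So were all 10 squamous markers, so detection alone does not tell a ductal from a squamous carcinoma. Between 50.3% and 56.5% of all probes were well above background on an array, and correlations between arrays were 0.980 to 0.990 over the tested probes. All 6 arrays were on 1 slide, where row 1 held the vehicle group and row 2 the DFX group, so slide row and treatment cannot be told apart. The control tumor replicate 1 stood apart for several genes described here, and the fold changes of S100A7, S100A8 and S100A9 are given with and without it.

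The sequences just before the transcription start are shown for a pattern that was seen once the values were known. The letters in them divided these genes as their range over all 6 tumors did. The windows below are the 60 bases before a RefSeq start in GRCh38.p14, read 5′ to 3′ on the strand of the gene, and capitals mark the TATA box letters TATAAA. The genes stand in the order of their range, which is the highest minus the lowest log2 intensity over the 6 tumors.
S100A8, chr1:153391074-153391133, minus strand: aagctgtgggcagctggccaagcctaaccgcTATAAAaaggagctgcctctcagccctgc
S100A7, chr1:153460652-153460711, minus strand: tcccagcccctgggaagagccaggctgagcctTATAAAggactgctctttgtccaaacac
S100A9, chr1:153357794-153357853, plus strand: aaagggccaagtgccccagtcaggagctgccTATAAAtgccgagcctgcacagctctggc
S100A4, chr1:153545807-153545866, minus strand: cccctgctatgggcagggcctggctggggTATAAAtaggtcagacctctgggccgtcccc
S100P, chr4:6693818-6693877, plus strand: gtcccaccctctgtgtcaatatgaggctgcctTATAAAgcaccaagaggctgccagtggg
S100A16, chr1:153613138-153613197, minus strand: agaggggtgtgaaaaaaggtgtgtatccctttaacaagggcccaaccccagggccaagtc
S100A14, chr1:153616326-153616385, minus strand: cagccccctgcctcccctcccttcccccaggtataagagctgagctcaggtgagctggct
S100A10, chr1:151993860-151993919, minus strand: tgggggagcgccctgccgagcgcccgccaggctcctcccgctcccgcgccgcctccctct
S100A11, chr1:152037005-152037064, minus strand: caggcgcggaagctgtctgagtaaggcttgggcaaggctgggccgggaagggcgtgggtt
S100A6, chr1:153535992-153536051, minus strand: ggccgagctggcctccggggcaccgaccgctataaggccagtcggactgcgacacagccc

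TATAAA began at positions -28 to -31 from the start in S100A8, S100A7, S100A9, S100A4 and S100P, and these were the 5 genes with the widest ranges. The range was 4.93 for S100A8, 2.64 for S100A7, 2.0 for S100A9, 0.73 for S100A4 and 0.60 for S100P. The other 5 genes had no TATAAA in the window and ranges of 0.28 to 0.50. The split by range rests on these exact letters: the windows of S100A14 and S100A6 hold tataag, which differs in the last letter, and S100A6 had the narrowest range of all. The range spans both groups, so for S100P it includes the difference between them. The pooled SD within groups was not divided in this way. It was 0.13 for S100P, against 0.17, 0.16 and 0.15 for S100A16, S100A10 and S100A14, and 0.12 and 0.11 for S100A11 and S100A6. Of all tested genes, 38.4% had a range at least as wide as S100A4, and 48.7% as S100P. S100A8 has 3 RefSeq starts and S100A16 has 2; for S100A8 the start with the letters is shown, and neither start of S100A16 had them. Among the 11120 tested genes with a promoter in the table, 3.62% held TATAAA in this window on their own strand, and their median range was 0.77 against 0.49 for the rest. Levels were not matched in that comparison. It is a description of letters and of spread, and nothing was tested about the factors that bind there.

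**Figure D1:**
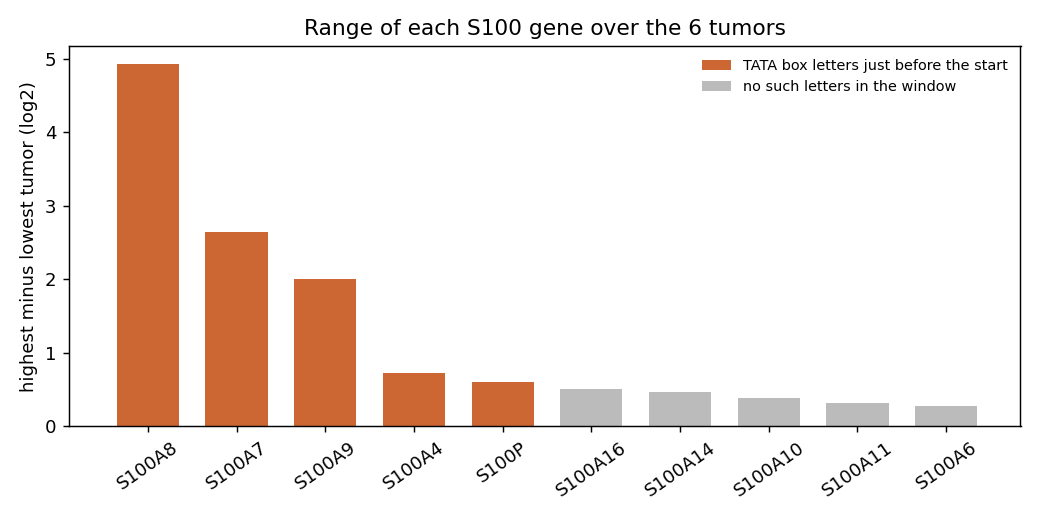
Range of each S100 gene over the 6 tumors, as the highest minus the lowest normalized log2 intensity, in descending order. Orange bars are genes with the TATA box letters in the 60 bases before a start and gray bars are genes without them; the 5 orange bars run from 4.93 to 0.60 and the 5 gray bars from 0.50 to 0.28.

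Other short motifs were searched on both strands of the 250 bases before each start, and a gene was counted if any of its starts had the motif, while the shares of all promoters are per start. ACGTG, the core of the site of hypoxia-inducible factors, which iron chelators stabilize, was found before 1 of the 10 genes, S100A16, and in 18.5% of all promoters in the table. TTNNGNAA, a C/EBP pattern, was found before 6 of the genes, S100A8, S100A9 and S100P among them, and in 33.2% of all promoters. The AP-1 pattern TGANTCA and the STAT pattern TTCNNNGAA were found before 0 of the 10 genes, and each in 6.57% of all promoters. A loose NF-κB pattern was found before 8 of the genes and in 54.4% of all promoters. Overlaps between motifs were not removed.

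By treatment, the S100 genes hardly differed as a group. Of the 10 genes, 4 were higher and 6 were lower in the DFX-treated tumors, and the median log2 fold change was -0.04, against -0.01 over all 22718 tested genes. A gene was called where limma gave an unadjusted p under 0.05. This was so for 1 of the 10 genes, S100P, where 7.98% of all tested genes were called (3.68% higher and 4.29% lower under DFX) and 8.41% of all tested probes. A share of 1 in 10 is near that background. After Benjamini-Hochberg adjustment over the 31807 tested probes, limma called 0 probes of any gene, with 2675 of them at an unadjusted p under 0.05. The linear model without moderation also left 0 probes after adjustment, and array quality weights left 3. The Kruskal-Wallis H test cannot go below 0.0495 with these groups, so it could leave none. The groups did not overlap for 1 of the 10 genes, again S100P, against 15.4% of all tested genes. With 3 tumors against 3, an exact permutation test of a single gene cannot go below 0.1.

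S100P, which binds ezrin and the receptor RAGE and is among the best-known marker genes of pancreatic ductal carcinoma, was the gene with the clearest difference. Its log2 intensity was 17.05, 16.95 and 16.75 under vehicle, against 17.17, 17.35 and 17.23 under DFX. All 3 DFX-treated tumors lay above all 3 control tumors. The mean was 16.92 ± 0.15 (SD, n = 3) under vehicle, against 17.25 ± 0.09 (SD, n = 3) under DFX, a 1.26-fold higher signal with a 95% confidence interval of 1.02 to 1.55. On the log2 scale the difference was 0.33 with a standard error of 0.12, and limma gave an unadjusted p of 0.0357 and an adjusted p of 0.578. In the slide columns that held 1 tumor of each group, the difference was 0.30 and 0.48.

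The call for S100P did not hold when any tumor other than control replicate 1 was left out, with log2 fold changes of 0.26 to 0.37 and unadjusted limma p-values of 0.0609 to 0.117 in these 5 fits. It was also not called with median scaling, where the log2 fold change was 0.23, with the slide column as a block, where it was 0.39 (standard error 0.23), or with the replicate number as a block, where it was 0.33 (standard error 0.14). Its direction was kept in all 20 alternatives. Of the 10 ductal carcinoma markers, 3 were called by their brightest probes, all higher, where 3.68% of all tested genes were called higher. These were EPCAM, KRT8 and KRT18, at log2 fold changes of 0.43, 0.48 and 0.27. The other 7 were not called, 6 of them with a positive log2 fold change and KRT7 at -0.17. The 2 dimmer probes of KRT8, at 0.24 and -0.12, and the dimmer probe of KRT18, at 0.15, were not called. The mean log2 level of the list was 13.80 to 14.24 under vehicle and 14.35 to 14.36 under DFX. Their part in the difference of S100P was not tested.

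**Figure D2:**
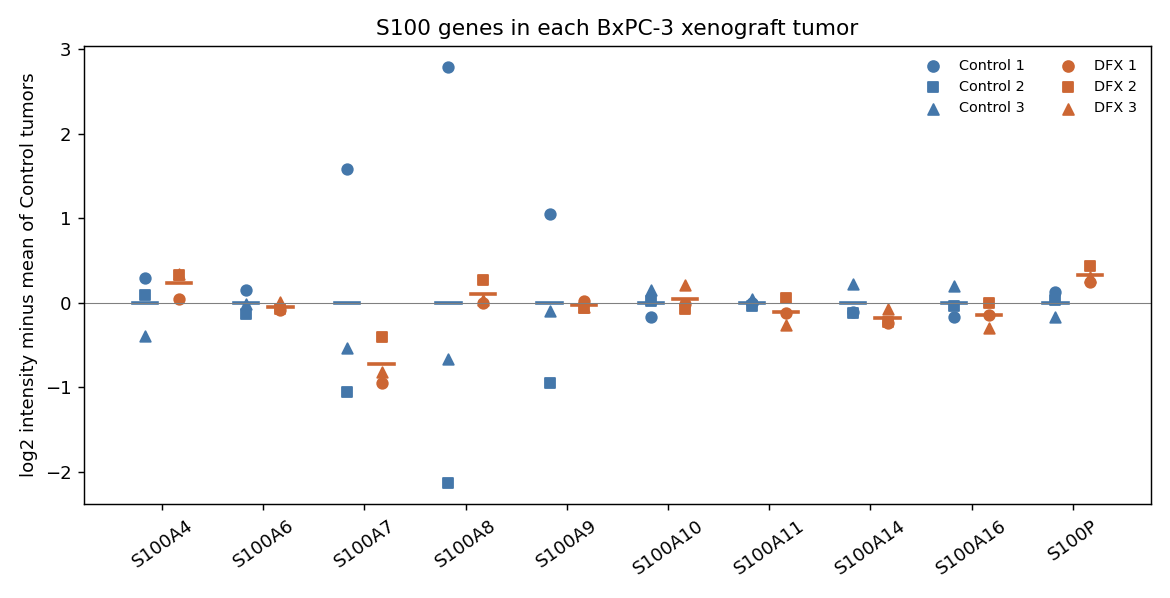
Normalized log2 intensity of the 10 S100 genes in each tumor, minus the mean of the control tumors for that gene. Points are tumors (marker shape gives the replicate number, which does not pair tumors), short bars are group means; the control tumors of S100A8 reach from 2.79 to -2.14 while its DFX-treated tumors lie between 0.00046 and 0.27, and only for S100P do the groups not overlap.

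S100A8 and S100A9, the calprotectin subunits, had nearly the same mean in both groups but very different spreads. S100A8 had a log2 intensity of 14.37, 9.44 and 10.92 in control replicates 1, 2 and 3, and of 11.58, 11.84 and 11.61 under DFX. The control tumors thus spanned a 30.5-fold range of signal and the DFX-treated tumors a 1.20-fold range. Only 0.163% of the tested genes had a range as wide as S100A8. S100A9 had 12.46, 10.46 and 11.31 under vehicle, against 11.43, 11.35 and 11.37 under DFX. That is a 4.0-fold range without DFX and a 1.06-fold range with it, and the 3 control tumors stood in the same order as for S100A8.

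Because of this spread the treatment comparison of calprotectin was imprecise. The log2 fold change was 0.10 (95% confidence interval -2.82 to 3.02) for S100A8 and -0.03 (-1.20 to 1.14) for S100A9, with adjusted p-values of 0.988 and 0.991 in limma. On the linear scale the interval of S100A8 ran from 0.142-fold to 8.09-fold. Without control replicate 1 the log2 fold change of S100A8 was 1.5 (standard error 0.45), called at an unadjusted limma p of 0.0211 with an adjusted p of 0.579. Without control replicate 2 it was -0.97 (standard error 1.01), not called. For S100A9 the values were 0.50 and -0.50, neither of them called. Within the slide columns that held both groups, S100A8 differed by -2.53 and 0.69, and S100A9 by -1.11 and 0.06.

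S100A7, or psoriasin, an epithelial protein of inflamed and squamous skin, was printed as 10 spots on each array, which gives the error between spots of 1 hybridization, though not that of labeling or of the array. Its probe has 60 bases but spans 962 bases of the genome, chr1:153430429-153431390 on the minus strand of hg19, so it crosses an exon junction and is read from spliced RNA. It is shown because it is the probe with replicate spots, written 5′ to 3′ with no letters marked.
S100A7 probe: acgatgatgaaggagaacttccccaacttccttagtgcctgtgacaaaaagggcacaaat

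The mean over its spots was 7.57, 4.94 and 5.45 under vehicle, against 5.03, 5.59 and 5.17 under DFX, with 3 outlier spots left out, each on a different array. Control replicate 1 was high and the other 5 tumors lay between 4.94 and 5.59. These are low values, as the lowest signal well above background on an array was 3.84 to 4.69. The SD over all 10 spots of an array was 0.11 to 0.35, and the range between tumors was 2.64. The log2 fold change of -0.72 (95% confidence interval -2.38 to 0.93, adjusted p = 0.778 in limma) became 0.07 without control replicate 1. With all tumors it was -0.42 after another background correction (normexp) and -0.38 with the raw mean signal, so its size depends on the background step.

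Control replicate 1 was the highest of the 6 tumors for 4 of the 10 genes, S100A6, S100A7, S100A8 and S100A9, and control replicate 2 was the lowest for the same 4. Over all tested genes, control replicate 1 was the highest for 16.9%, and it was the highest for 17.3% of the 1355 genes whose range was at least that of S100A9. The SD was larger in the control than in the DFX-treated tumors for 9 of the 10 S100 genes, S100A11 being the exception, against 54.6% of all tested genes. Among the 1355 genes of wide range the share was 48.3%.

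**Figure D3:**
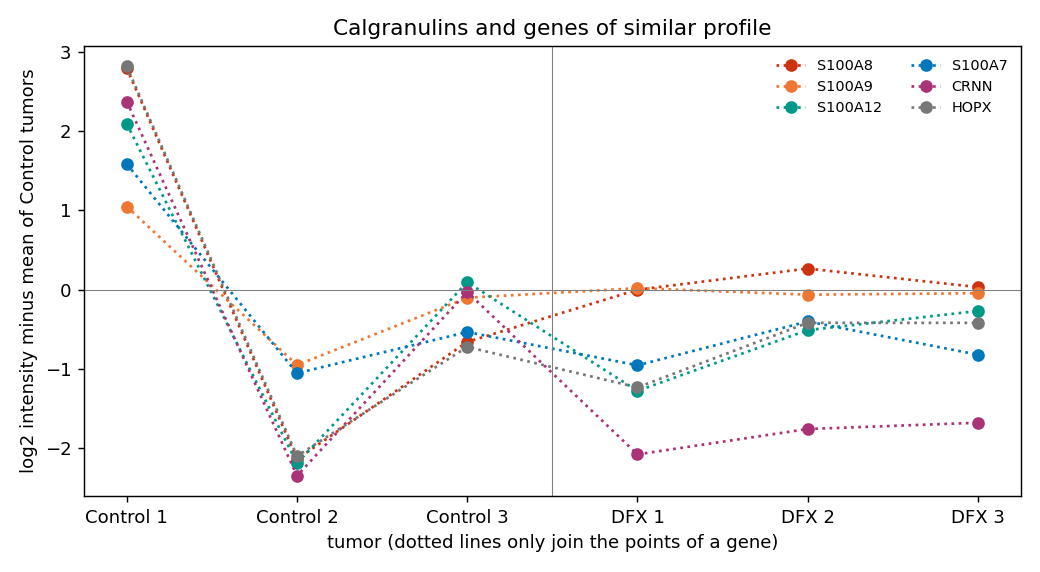
Normalized log2 intensity of S100A7, S100A8, S100A9, S100A12, CRNN and HOPX in each tumor, minus the mean of the control tumors. All 6 genes are highest in control replicate 1 and lowest among the control tumors in control replicate 2; S100A8 and S100A9 of the DFX-treated tumors lie within 0.27 of the control mean.

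Genes with the profile closest to S100A8 were sought by the root mean square difference of centered log2 values over the 6 tumors among 22713 genes. The 5 closest were XLOC_006223, HOPX, XLOC_004040, S100A12 and XLOC_006471, at differences of 0.44 to 0.74. The 3 XLOC names are non-coding transcripts, each well above background on 1 array only. HOPX, a homeodomain protein of differentiating epithelium, was at 9.45, 4.54 and 5.91 under vehicle, against 5.40, 6.22 and 6.21 under DFX. S100A12, the third calgranulin, was at 8.53, 4.25 and 6.54, against 5.17, 5.93 and 6.17 under DFX, and its second probe had the same order of the control tumors. The first probe was well above background in 2 control and 3 DFX-treated tumors, and the second in 2 of each group. Mice have no S100A12 gene. CRNN, or cornulin, a fused-type S100 protein of squamous epithelium chosen for mention after its values were seen, was at 9.90, 5.18 and 7.50 under vehicle, against 5.45, 5.77 and 5.85 under DFX.

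The 5 genes closest to S100A7 were MAGEB2, HBB, XLOC_004040, XLOC_008324 and SH2D1B, at differences of 0.21 to 0.30. MAGEB2, a cancer-testis gene, was at 8.66 in control replicate 1 and at 6.58 to 6.91 in the other tumors. HBB, or β-globin, was at 8.76 there and at 6.69 to 7.26 elsewhere. XLOC_004040 was on both lists. Of the 5 tested red blood cell markers, HBB included, HBA2 and HBD were called lower under DFX, at -1.93 and -1.12. The share of all tested genes called lower was 4.29%. The mean level of the list was 8.54 to 9.01 under vehicle and 7.96 to 8.09 under DFX. Its part in the level of S100A7 was not tested. These profiles rest on 6 tumors and largely on 1 of them.

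Markers of other cells were set beside the calprotectin genes. Leukocytes, fibroblasts and red blood cells in these xenografts are those of the mouse, so human probes can read them only by cross-hybridization, and a low signal of such a marker says little about the number of these cells. Of 13 granulocyte and monocyte markers, 10 had a tested probe and 0 were called. Of these 10, 8 were well above background on all arrays, CD14, CD68 and ITGB2 among them. The log2 fold change was positive for 8 and negative for 2. ELANE and MPO, which encode granule enzymes found in neutrophils, did not pass the detection filter, MPO being well above background in 0 tumors and ELANE in 1 DFX-treated tumor. CXCR2 was well above background in 1 control tumor only. The mean log2 level of the list was 7.37, 7.19 and 7.33 under vehicle and 7.38 to 7.46 under DFX, and 1 of the 10 genes was highest in control replicate 1. For the 10 squamous markers, KRT5 and TP63 among them, the mean level was 12.47 to 12.58 under vehicle and 12.35 to 12.59 under DFX, 0 were called and 3 were highest in control replicate 1. Of the 12 tested cornified envelope genes, the neighbors of the S100 genes on chromosome 1, 0 were called, 4 were highest in control replicate 1, and the mean level was 9.79, 8.85 and 9.18 in control replicates 1, 2 and 3 and 9.0 to 9.43 under DFX. The granulocyte and monocyte, squamous and cornified envelope lists all ordered the control tumors as S100A8 did. The highest and the lowest differed by 0.18, 0.11 and 0.94, against 4.93 for S100A8. The other S100 family and fused-type S100 lists also had this order, with differences of 0.46 and 1.12. The ductal carcinoma, fibroblast, binding partner and red blood cell lists did not share it. The ductal carcinoma, fibroblast and binding partner lists were highest in control replicate 2 and lowest in control replicate 3. The red blood cell list was highest in control replicate 1 and lowest in control replicate 3. Few orders of 3 tumors are possible. The part of these cells and genes in the spread of calprotectin was not tested.

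S100A4, or metastasin, which binds non-muscle myosin and is also made by fibroblasts, was at 14.97, 14.77 and 14.28 under vehicle, against 14.71, 15.01 and 15.01 under DFX. The groups overlapped, and control replicate 3 was the lowest. The log2 fold change was 0.24 (95% confidence interval -0.26 to 0.74, adjusted p = 0.760 in limma) and it was 0.04 without that tumor. Of 9 tested fibroblast markers, LUM was called higher and DCN lower in the DFX-treated tumors. Among all tested genes, 3.68% were called higher and 4.29% lower. The dimmer probe of DCN, at -0.28, was not called. The mean level of the list was 9.27 to 9.75 under vehicle and 9.32 to 9.72 under DFX. Its part in the level of S100A4 was not tested.

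The remaining 5 genes were steady in all tumors. S100A6, or calcyclin, ranged over 0.28 around a mean of 17.44 ± 0.14 (SD, n = 3) under vehicle, against 17.39 ± 0.05 (SD, n = 3) under DFX. S100A10, which does not respond to calcium and pairs with annexin A2 at the membrane, had means of 15.71 ± 0.16 (SD, n = 3) under vehicle and 15.75 ± 0.15 (SD, n = 3) under DFX. S100A11, a partner of annexin A1, was measured by 2 neighboring probes with log2 fold changes of -0.12 and -0.11, whose order of the DFX-treated tumors was the same. S100A14 and S100A16, both epithelial members, had log2 fold changes of -0.18 and -0.15, which were -0.067 and -0.045 without control replicate 3. For S100A11 the brighter probe was at -0.031 without DFX replicate 3. The 95% confidence intervals of these 5 genes reached from 0.701-fold to 1.30-fold, so a 2-fold change in either direction lay outside all of them. The median within-group SD of the 10 genes was 0.16 and that of all tested genes 0.21.

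**Figure D4:**
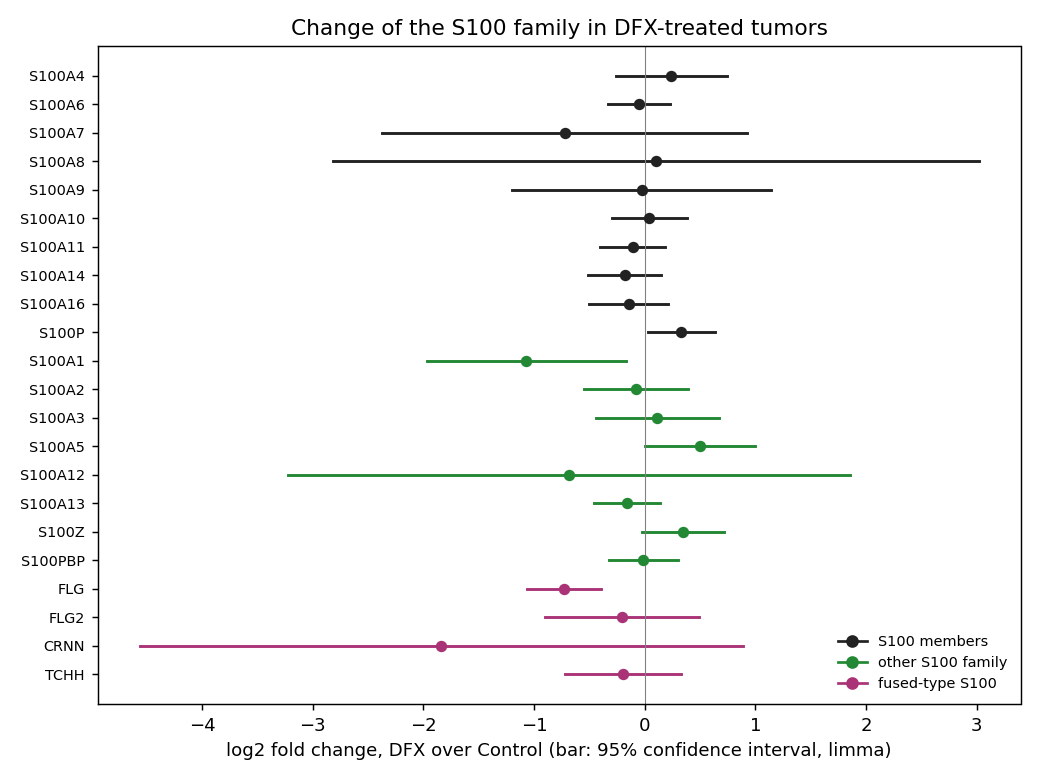
Log2 fold change of DFX-treated over control tumors for the 10 S100 genes (black), the 8 other tested S100 family genes (green) and the 4 tested fused-type S100 genes (purple). Points are limma estimates for the brightest tested probe and bars are 95% confidence intervals; the bars of S100P, S100A1, S100A5 and FLG do not cross 0, those of S100A8, S100A12 and CRNN are the widest.

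Among 12 further genes of the family, the binding protein gene S100PBP included, 8 had a tested probe, and their median log2 fold change was -0.05. Of these 8, 1 was called higher and 1 lower, where 3.68% of all tested genes were called higher and 4.29% lower. S100A5 was higher, at 0.50 (standard error 0.20), with an unadjusted p of 0.0499 and an adjusted p of 0.594 in limma. S100A1, a regulator of calcium handling in muscle, was lower, at -1.07 (standard error 0.37, adjusted p = 0.557 in limma), although its groups overlapped. S100A2 and S100A13, both bright on all arrays, had log2 fold changes of -0.08 and -0.16. S100B, S100G, S100A7A and S100A7L2 did not pass the detection filter. Of the 7 fused-type S100 genes, which join S100 domains to the repeats of cornified proteins, 4 were tested and 1 was called, where 7.98% of all tested genes were called. FLG2, at -0.21, was well above background on 0 arrays, and CRNN, at -1.84, and TCHH, at -0.19, overlapped between the groups. FLG, or filaggrin, was the 1 that was called, at 9.74, 9.77 and 9.59 under vehicle, against 8.99, 8.77 and 9.15 under DFX, a log2 fold change of -0.73 (standard error 0.14, adjusted p = 0.513 in limma) without overlap. A second probe of FLG was also called, at -0.91, and the third was not, at -0.30.

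Binding partners and receptors were taken as a list of 18 genes, all tested. In the DFX-treated tumors 4 were higher and 14 lower, with a median log2 fold change of -0.08, and 2 were called by their brightest probe, both lower, where 7.98% of all tested genes were called and 4.29% called lower. These were ANXA6, an annexin that binds S100 proteins at membranes, at -1.09 (standard error 0.28), and COPS5, or JAB1, a partner of S100A7, at -0.28 (standard error 0.11). The main partners of the other members were not called: ANXA2 for S100A10 had a log2 fold change of 0.02, ANXA1 for S100A11 -0.07, CACYBP for S100A6 -0.13, MYH9 for S100A4 -0.18 and EZR for S100P 0.12. By their brightest probes, the receptors AGER, which encodes RAGE, and TLR4 were well above background in all tumors, at log2 fold changes of -0.12 and 0.29. A dimmer probe of AGER, at -0.41 and not called, was well above background in 2 control and 0 DFX-treated tumors. Another probe of AGER did not pass the detection filter.

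**Figure D5:**
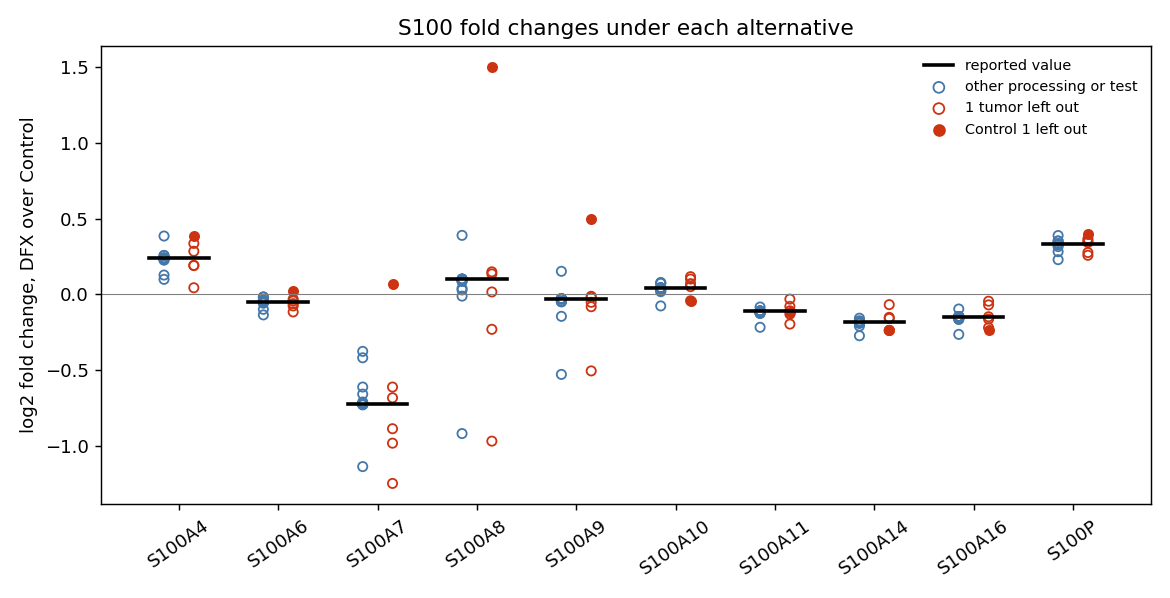
Log2 fold change of each S100 gene as reported (black bar), under other processing or tests (blue circles), and with 1 tumor left out (red circles, filled for control replicate 1). S100A7, S100A8 and S100A9 move most, S100A8 from -0.97 to 1.5, while S100P stays between 0.23 and 0.40.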

How the data were processed

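Expression was measured on 6 one-color arrays, 1 per tumor, grouped by the sample titles. The authors deposited scanner files from Agilent Feature Extraction 10.7.1.1 (9.5.1.1 per the labels and methods), which hold linear intensities, a background p-value for each spot and flags, not normalized between arrays. They also deposited a table of processed intensities, which was used as an alternative. Background-subtracted signals were log2-transformed and quantile-normalized over 58717 non-control spots, 1398 outlier spot values were left out, and spots of a probe were averaged. Probes with a median background p-value under 0.05 on all 6 arrays (31807 of 50599) were compared with limma 3.58.1 in R 4.3.3, two-sided. The study gives a p threshold of 0.05 for the arrays without naming the test or an adjustment there, and the Kruskal-Wallis H test for its in vivo experiments, which was an alternative here. Calls are at an unadjusted limma p under 0.05. Each gene was read from the brightest of its tested probes. The procedure was tested on simulated data. No spot was saturated, and the number of arrays limits the precision.

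The members, gene lists and motifs were chosen with earlier results of these data known. Beyond the 10 members, genes are named if called in a list, as the main partner of a member, or as a marker in a list. The 5 closest profiles to the 2 members of widest range are also named. Probes were placed on hg19 as annotated in the scanner files, and promoters are from RefSeq on GRCh38.p14, where all 10 symbols matched. Alternatives covered scaling, background correction, signal column, the authors' processed values, filters, outliers, test, array weights, replicate and slide column blocks, probes per gene, and leaving out each tumor.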

Additional observations from a re-analysis of the deposited data

How the results depend on the processing

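The count of S100 genes called was 1 of 10, and 0 with median scaling, the replicate block and the slide column block. With 1 tumor left out it was 0 to 2, the 2 being S100P and S100A8 without control replicate 1, and 0 without any of the other 5 tumors. The median log2 fold change of -0.04 was -0.14 with median scaling and also -0.14 with the slide column block. It ran from -0.15 (without control replicate 2) to 0.047 (without control replicate 1) with 1 tumor left out. The number of genes higher in the DFX-treated tumors was 4, with 3 to 6 when 1 tumor was left out, the 6 being without control replicate 1, and 2 with median scaling, under which the median over all probes was -0.10.

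Signs turned as follows. S100A10 was at -0.076 with median scaling and at -0.042 to 0.12 with 1 tumor left out. S100A8 was at -0.011 with median scaling, at -0.92 with the slide column block, and at -0.97 to 1.5 with 1 tumor left out. S100A9 was at 0.15 with array quality weights and at -0.50 to 0.50 with 1 tumor left out. S100A6 reached 0.024 and S100A7 0.069 without control replicate 1, and their lowest values with 1 tumor left out were -0.12 and -1.25. S100A4, S100A11, S100A14, S100A16 and S100P kept their direction in the 20 alternatives, within 0.044 to 0.39, -0.22 to -0.031, -0.27 to -0.067, -0.26 to -0.045 and 0.23 to 0.40. The cause was not tested.

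Tumors with the same replicate number had deviations correlated at 0.027, 0.027 and 0.016, so the numbers do not pair them. With the replicate block S100P was not called (log2 fold change 0.33, standard error 0.14, adjusted p = 0.665 in limma). Over all probes 2419 were called with the block, against 2675. Of the calls over all probes, 58.8% were lower in the DFX-treated tumors, 71.8% with median scaling and 42.6% with scaling to the upper quartile. The count was 4927 with the Kruskal-Wallis H test named in the methods and 1418 with the slide column block.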
